A study of Mus musculus with 6 samples.

Results

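The chemokine ligands are the 46 rows of the deposited gene tables whose symbols begin with Ccl, Cxcl, Cx3cl or Xcl followed by a number and at most 1 letter, out of 55487 rows in all. They carry 40 distinct symbols, because Ccl19, Ccl21 and Ccl27 genes occupy 13 rows for near-identical copies, 7 of them on unplaced scaffolds. The platelet chemokine genes Pf4 and Ppbp have other names and are therefore not among the 46.

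RNA was sequenced from mammary tumours of MMTV-PyMT mice, in which the mouse mammary tumour virus promoter drives the polyoma middle T oncoprotein mainly in mammary epithelium. There were 3 libraries labelled DMHCA, from mice that received this steroidal LXR agonist orally in gel cups without a break, and 3 vehicle libraries. Treatment started at an age of 6 weeks in both groups. Both groups carry the transgene. Age at collection and background strain were not given in the labels, nor whether each library of a group is a separate mouse. The p-values therefore reflect only how these libraries vary, which may in part be technical. Titles within a group share 1 unexplained code, while the deposited tables carry a different code for each library.

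Chemokines are small secreted or membrane-bound proteins that direct leukocyte migration by activating G protein-coupled receptors, and they are named for the spacing of their first cysteines (CC, CXC, CX3C and C). In mammary tumours they are made by macrophages, fibroblasts, endothelium and tumour epithelium, and different ligands attract monocytes, neutrophils, T cells, B cells or dendritic cells. Many inflammatory members are induced through NF-kB and some through interferon. LXR is an oxysterol-activated nuclear receptor that raises cholesterol export and, in macrophages, represses part of the NF-kB response, and the question here is whether chemokine transcripts differ between agonist and vehicle tumours.

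The libraries held between 36577451 and 42595799 expected counts, at which 3 counts, the limit that a count of 0 allows, correspond to between 0.0704 and 0.082 CPM (counts scaled to library size). Markers of luminal epithelium were abundant throughout, with a summed level of 2316 to 2675 TPM (a deposited unit of transcript abundance corrected for transcript length and depth) in the agonist libraries and 2475 to 2754 TPM in the vehicle libraries. The vehicle libraries stood apart from one another in the summed levels of stromal markers. The 8 fibroblast markers, none of which was at 0, summed to 971, 700.4 and 834 TPM in agonist replicates 1 to 3, against 526, 1260 and 122 TPM in vehicle replicates 1 to 3. The 10 macrophage markers, again none at 0, summed to 521, 594 and 549 TPM with agonist, against 469.8, 744 and 247 TPM with vehicle. Vehicle replicate 2 was thus the highest and vehicle replicate 3 the lowest of all 6 libraries for the sums of both lists. The sums were mostly Col1a1, Col1a2 and Col3a1 for fibroblasts, and C1qa, C1qb, C1qc and Cd14 for macrophages. Not every marker kept this order. Pdgfra and Cd14 were lowest in vehicle replicate 1, at 2.24 and 70 TPM, against 3.07 and 83.55 TPM in vehicle replicate 3. In bulk tissue, fewer cells of a type and less RNA per cell cannot be told apart.

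The promoters of 6 ligands are shown because the results below turn on 2 sets of genes, the CC ligands that varied together across libraries (Ccl8, Ccl6 and Ccl9, on chromosome 11) and CXC ligands known as NF-kB or interferon targets (Cxcl1, Cxcl2 and Cxcl10, on chromosome 5). Each window runs from 250 bases before to 50 after the RefSeq transcription start on GRCm38.p6, written 5′ to 3′ on the gene's strand. Capitals mark a kappa B motif (NF-kB) or an IRF motif (GAAANNGAAA), searched on both strands, with overlapping matches merged. The windows lie at chr11:82114935-82115234 (Ccl8, plus strand), chr11:83593038-83593337 (Ccl6, minus), chr11:83578587-83578886 (Ccl9, minus), chr5:90890995-90891294 (Cxcl1, plus), chr5:90903649-90903948 (Cxcl2, plus) and chr5:92348840-92349139 (Cxcl10, minus).
Ccl8: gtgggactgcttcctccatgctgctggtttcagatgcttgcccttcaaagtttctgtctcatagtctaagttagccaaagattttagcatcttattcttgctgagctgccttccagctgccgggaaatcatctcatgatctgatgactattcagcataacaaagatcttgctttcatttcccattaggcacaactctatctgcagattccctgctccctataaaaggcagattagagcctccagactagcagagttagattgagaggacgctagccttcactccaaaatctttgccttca
Ccl6: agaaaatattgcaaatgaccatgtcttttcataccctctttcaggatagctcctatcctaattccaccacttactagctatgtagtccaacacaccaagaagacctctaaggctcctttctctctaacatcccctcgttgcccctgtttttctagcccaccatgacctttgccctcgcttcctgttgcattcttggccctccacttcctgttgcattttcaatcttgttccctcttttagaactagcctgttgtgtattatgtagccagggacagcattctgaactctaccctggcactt
Ccl9: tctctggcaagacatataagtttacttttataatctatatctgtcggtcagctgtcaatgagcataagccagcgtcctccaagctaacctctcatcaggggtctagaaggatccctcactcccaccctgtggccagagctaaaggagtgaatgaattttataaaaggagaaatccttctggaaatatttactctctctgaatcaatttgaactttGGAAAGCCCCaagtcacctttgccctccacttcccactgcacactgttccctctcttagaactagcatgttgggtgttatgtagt
Cxcl1: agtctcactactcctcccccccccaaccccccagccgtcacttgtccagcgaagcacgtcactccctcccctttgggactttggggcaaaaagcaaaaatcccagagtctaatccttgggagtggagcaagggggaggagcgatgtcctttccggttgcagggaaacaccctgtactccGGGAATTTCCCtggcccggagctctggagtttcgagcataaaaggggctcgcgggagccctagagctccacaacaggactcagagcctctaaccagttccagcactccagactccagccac
Cxcl2: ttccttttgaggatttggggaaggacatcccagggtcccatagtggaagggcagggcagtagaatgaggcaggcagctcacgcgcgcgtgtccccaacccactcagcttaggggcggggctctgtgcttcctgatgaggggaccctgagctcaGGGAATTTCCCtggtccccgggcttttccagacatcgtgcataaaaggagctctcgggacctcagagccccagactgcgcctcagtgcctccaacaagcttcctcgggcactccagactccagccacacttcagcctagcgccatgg
Cxcl10: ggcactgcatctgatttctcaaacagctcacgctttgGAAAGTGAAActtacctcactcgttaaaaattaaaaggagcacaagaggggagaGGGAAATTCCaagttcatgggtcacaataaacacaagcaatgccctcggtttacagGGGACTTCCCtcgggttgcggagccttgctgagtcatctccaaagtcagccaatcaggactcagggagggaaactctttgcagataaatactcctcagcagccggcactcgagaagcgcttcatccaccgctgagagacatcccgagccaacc

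Of the 40 symbols, 28 matched the RefSeq promoter table, with 34 windows. A kappa B motif was found in 7 of these windows (20.6%), against 4.50% of all 32817 promoter windows of this length. Besides Cxcl1, Cxcl2, Cxcl10 and Ccl9, the matches were in Cxcl3, Ccl20 and 1 of the Ccl27a windows. In Cxcl1 and Cxcl2 the capital stretch joins overlapping matches, starting 71 bases before the start site of Cxcl1 and 97 bases before that of Cxcl2. The IRF motif was in 3 windows (Cxcl10, Cxcl14 and Ccl19; 8.82%, against 3.43% of all windows), the AP-1 motif TGANTCA, not marked above, in 20.6% of member windows (7.81% of all), and the DR4 element that LXR binds with RXR was in 0 of 34 (0.232% of all windows). A match describes the letters only, and Ccl8 and Ccl6, which hold neither motif here, may be bound elsewhere.

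The tumours expressed a narrow set of chemokines at appreciable levels. Averaged over the 6 libraries, 11 rows reached 10 TPM, 21 reached 1 TPM and 32 reached 0.1 TPM, while 8 had some signal below 0.1 TPM and 6 had no count in any library. The summed chemokine level was 406, 428 and 382 TPM in agonist replicates 1 to 3, against 261, 666.5 and 189 TPM in vehicle replicates 1 to 3. The agonist sums lay close together, inside a vehicle range set by replicates 2 and 3.

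**Figure D1:**
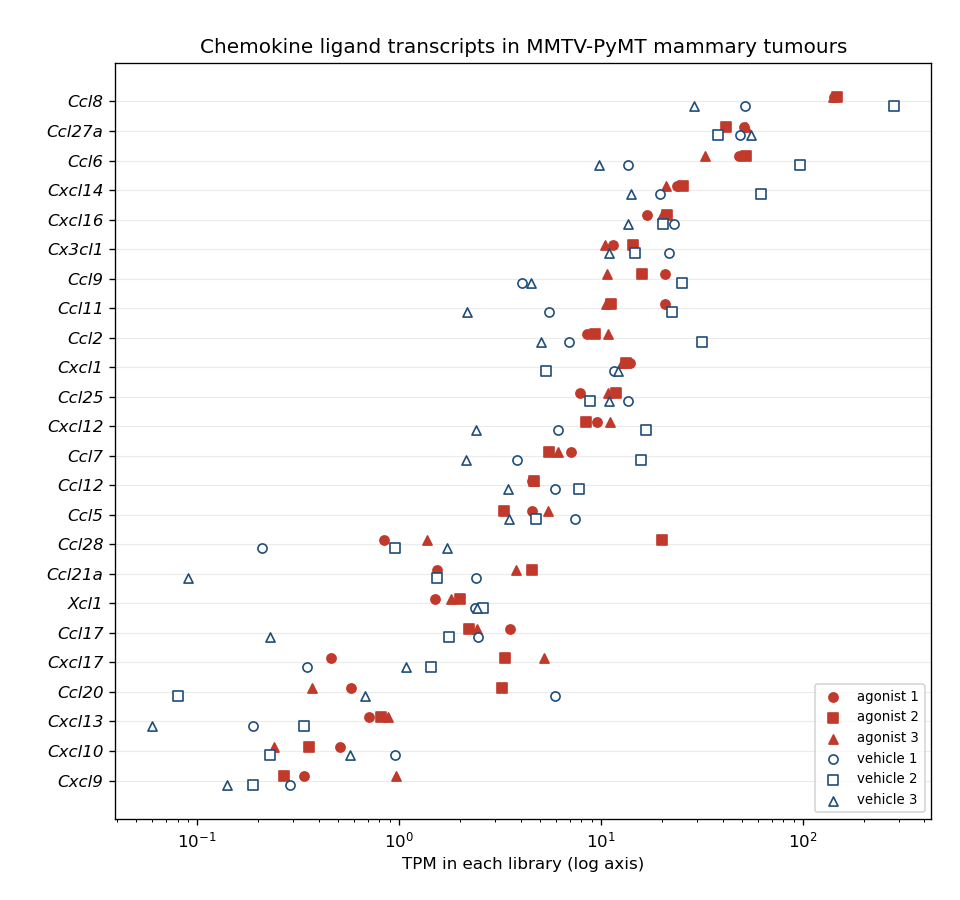
TPM of 24 chemokine ligands (rows, ordered by mean level) in each library on a log axis; filled red symbols are agonist libraries and open blue symbols vehicle libraries, with circles, squares and triangles for replicates 1, 2 and 3. For Ccl8, Ccl6, Ccl7, Ccl2, Cxcl12 and Cxcl14 the agonist libraries lie between vehicle replicate 2, on the right, and the other vehicle libraries.

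Ccl8, which encodes monocyte chemoattractant protein 2, a ligand that in mouse also acts on CCR8, was the most abundant chemokine in 5 of 6 libraries. It had 142.7, 148.0 and 141.2 TPM with agonist, against 51.4, 283.0 and 28.8 TPM with vehicle. The agonist values spanned 1.05-fold and the vehicle values 9.81-fold, so the groups overlapped. Ccl8 lies on chromosome 11 (82115185 to 82116799, plus strand) at one end of a block with Ccl2, Ccl7, Ccl11 and Ccl12, grouped here as ligands of the monocyte receptor CCR2 or the eosinophil receptor CCR3.

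Its neighbours were expressed at lower levels. Ccl2, the classical monocyte attractant, had 8.54, 9.34 and 10.9 TPM with agonist, against 6.93, 31.6 and 5.06 TPM with vehicle. Ccl7, a further monocyte attractant, had 7.08, 5.54 and 6.16 TPM with agonist, against 3.86, 15.7 and 2.14 TPM with vehicle. Both were highest in vehicle replicate 2 and lowest in vehicle replicate 3. Ccl11, which encodes eotaxin, had 20.7, 11.2 and 10.5 TPM with agonist, against 5.50, 22.5 and 2.16 TPM with vehicle. Ccl12, a mouse CCR2 ligand, varied least, at 4.57, 4.65 and 4.64 TPM with agonist and 5.94, 7.82 and 3.45 TPM with vehicle. The 5 genes of the block, between 82035571 and 82116799, summed to 184, 179 and 173 TPM with agonist, against 73.7, 361 and 41.6 TPM with vehicle. They made up 41.7% to 45.4% of all chemokine TPM in the agonist libraries, against 28.2%, 54.1% and 22.0% in the vehicle libraries. Ccl24, a CCR3 ligand encoded on chromosome 5, stayed at 0.30 to 1.17 TPM with agonist and 0.10 to 0.88 TPM with vehicle, and Ccl26 had no count.

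A 2nd block on chromosome 11 (83525778 to 83664683) holds Ccl5, Ccl9, Ccl6, Ccl3 and Ccl4, the macrophage inflammatory CC ligands, and only its rodent genes Ccl6 and Ccl9 were abundant. Ccl6 had 48.5, 52.2 and 32.8 TPM with agonist, against 13.6, 96.8 and 9.75 TPM with vehicle. Ccl9 had 20.8, 15.9 and 10.7 TPM with agonist, against 4.05, 25.2 and 4.51 TPM with vehicle. For both genes all agonist libraries were above vehicle replicates 1 and 3 and below vehicle replicate 2. Ccl5, a product of T cells and NK cells, had 4.58, 3.32 and 5.44 TPM with agonist, against 7.43, 4.77 and 3.51 TPM with vehicle, a different order of libraries. Ccl3 and Ccl4, the macrophage inflammatory proteins 1 alpha and beta, stayed under 1 TPM everywhere. Ccl3 had 0.69 to 0.88 TPM with agonist and 0.51 to 0.84 TPM with vehicle, and Ccl4 had 0.21 to 0.99 TPM with agonist and 0.50 to 0.85 TPM with vehicle. The block summed to 74.8, 73.3 and 50.5 TPM with agonist, against 26.6, 128 and 19.1 TPM with vehicle.

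**Figure D2:**
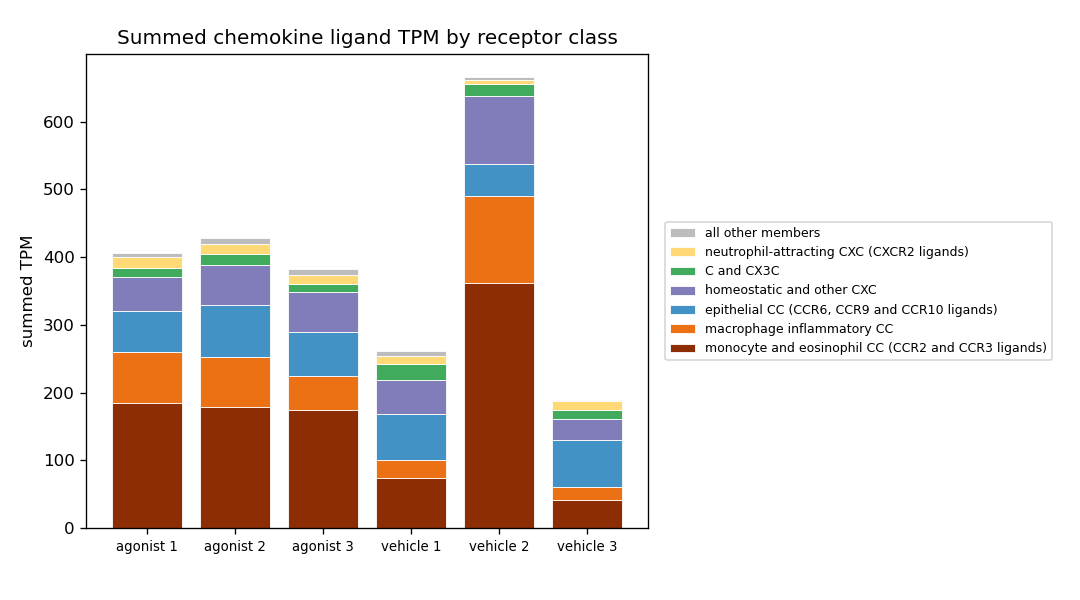
Stacked bars of summed TPM of the chemokine ligands in each library, split by receptor class, with agonist libraries on the left. The CCR2 and CCR3 ligands sum to between 174 and 185 TPM in the agonist libraries and to 73.9, 361 and 41.7 TPM in vehicle replicates 1, 2 and 3.

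Among the CXC ligands, the homeostatic members dominated. Cxcl14, a ligand of epithelium and fibroblasts, had 23.7, 25.4 and 21.1 TPM with agonist, against 19.5, 61.9 and 14.1 TPM with vehicle. Cxcl12, the stromal ligand of CXCR4, had 9.53, 8.43 and 11.1 TPM with agonist, against 6.10, 16.7 and 2.41 TPM with vehicle. Each again had vehicle replicates 2 and 3 at its extremes. Cxcl16, a membrane-bound ligand of CXCR6 that also takes up oxidised lipoprotein, was even, at 16.9, 21.2 and 20.04 TPM with agonist and 22.9, 20.3 and 13.6 TPM with vehicle. Exons of Cxcl16 overlap Zmynd15 on the opposite strand, which had 1.11 to 1.57 TPM with agonist and 1.81 to 3.51 TPM with vehicle, and reads of the overlap cannot be told apart without a stated strand setting.

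The neutrophil-attracting CXCR2 ligands behaved differently. Cxcl1 had 13.9, 13.3 and 12.7 TPM with agonist, against 11.6, 5.35 and 12.1 TPM with vehicle, and was lowest in vehicle replicate 2, where Ccl8 was highest. The groups did not overlap in TPM but did in TMM-scaled CPM. Cxcl2 (0.30 to 1.23 TPM with agonist, 0.59 to 0.90 TPM with vehicle) and Cxcl5 (0.17 to 0.47 TPM with agonist, 0.17 to 0.48 TPM with vehicle) were low, and Cxcl3 and Cxcl15 did not exceed 0.04 TPM with agonist or 0.17 TPM with vehicle. Of 7 neutrophil markers, Ly6g was at 0 in every library, Cxcr2, the receptor itself, stayed at 0.04 to 0.10 TPM with agonist and 0.03 to 0.17 TPM with vehicle, and the list summed to 62.7 to 161 TPM with agonist and 23.4 to 74.9 TPM with vehicle, most of it S100a8.

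The interferon-inducible CXCR3 ligands, which attract activated T and NK cells, were scarce. Cxcl9 (chromosome 5, 92321347 to 92328079) had 0.34, 0.27 and 0.97 TPM with agonist, against 0.29, 0.19 and 0.14 TPM with vehicle. Its neighbour Cxcl10 (92346638 to 92348889) had 0.51, 0.36 and 0.24 TPM with agonist, against 0.96, 0.23 and 0.57 TPM with vehicle. Exons of Cxcl10 overlap Art3 on the opposite strand, which had 2.53 to 3.84 TPM with agonist and 1.87 to 5.94 TPM with vehicle, so the level of Cxcl10 is uncertain. The adjacent genes had different high libraries, agonist replicate 3 for Cxcl9 and vehicle replicate 1 for Cxcl10. Ifng, interferon gamma itself, was highest in agonist replicate 3 as well (0.22 TPM, against 0.09 TPM or less elsewhere), and the 7 T cell markers summed to 1.90, 2.11 and 4.90 TPM with agonist, against 4.14, 2.02 and 2.94 TPM with vehicle. Isg15, a type I interferon target, was highest in vehicle replicate 1 like Cxcl10, with 46.0, 16.0 and 24.5 TPM with agonist and 98.1, 18.0 and 66.9 TPM with vehicle. The part of these lists in the 2 ligands was not tested. Cxcl11, annotated as a polymorphic pseudogene in GENCODE, had at most 0.20 TPM.

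Several epithelial and membrane-bound ligands varied little between libraries, by 1.45-fold for Ccl27a, 1.72-fold for Ccl25 and 2.07-fold for Cx3cl1. Ccl27a, a keratinocyte ligand of CCR10, had 51.1, 41.4 and 52.6 TPM with agonist, against 48.6, 38.0 and 55.2 TPM with vehicle, and was the top chemokine of vehicle replicate 3. Its exons on chromosome 4 overlap Il11ra1 on the opposite strand (51.1 to 73.5 TPM with agonist, 53.5 to 68.9 TPM with vehicle), and 2 further Ccl27a rows and Ccl27b share its sequence, so its level is uncertain. Cx3cl1, the membrane-anchored fractalkine, had 11.5, 14.4 and 10.4 TPM with agonist, against 21.6, 14.7 and 10.9 TPM with vehicle, and vehicle replicate 1 alone was high. Ccl25, a thymic and intestinal ligand of CCR9, had 7.88, 11.9 and 10.8 TPM with agonist, against 13.6, 8.79 and 11.02 TPM with vehicle, with an exon overlap with Elavl1 (38.2 to 48.7 TPM over all libraries).

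Some low members were carried by single libraries. Ccl28, a mucosal ligand that draws IgA plasma cells, had 0.84, 20.1 and 1.38 TPM with agonist, against 0.21, 0.95 and 1.73 TPM with vehicle. Agonist replicate 2 alone was high. A list of 10 exocrine gland genes, chosen after values were seen, summed to 674, 1533 and 806 TPM with agonist, against 2278, 520 and 1135 TPM with vehicle, and without the abundant water channel gene Aqp5 to 19.03, 835 and 228 TPM with agonist, against 19.2, 66.2 and 13.1 TPM with vehicle. Muc19 was at 0, and without Aqp5 agonist replicate 2 was the highest library. Igha, of the 7 plasma cell markers, had 4.01, 23.6 and 2.97 TPM with agonist, against 0.36, 1.90 and 0.43 TPM with vehicle, while the whole plasma cell list, mostly Xbp1, summed to 652 to 1051 TPM with agonist and 719 to 971 TPM with vehicle. The part of these transcripts in Ccl28 was not tested.

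Cxcl17, a mucosal attractant of myeloid cells, had 0.46, 3.35 and 5.24 TPM with agonist, against 0.35, 1.44 and 1.08 TPM with vehicle. It was highest in agonist replicate 3 and next in agonist replicate 2. Those were also the highest libraries for the exocrine sum without Aqp5, but in the other order, and there the sum was mostly Dcpp1 and Dcpp2. With Aqp5 the sum was highest in vehicle replicate 1 (2278 TPM), and agonist replicate 3 (806 TPM) was below vehicle replicate 3 (1135 TPM). The part of exocrine tissue in Cxcl17 was not tested. Ccl20, the CCR6 ligand, had 0.58, 3.24 and 0.37 TPM with agonist, against 5.93, 0.08 and 0.68 TPM with vehicle, with no group order. Its 74.1-fold span is uncertain, because the lowest value rests on 3 counts. Ccl17, a ligand of CCR4 made by dendritic cells, had 3.55, 2.21 and 2.42 TPM with agonist, against 2.46, 1.77 and 0.23 TPM with vehicle. Vehicle replicate 3 was the low library for Ccl17 and also for Ccl22, the other CCR4 ligand, at 0.36 to 0.39 TPM with agonist and 0.44, 0.47 and 0.03 TPM with vehicle.

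The lymphoid ligands and the C-class ligand completed the set. Ccl21a, the lymphatic ligand of CCR7, had 1.54, 4.56 and 3.79 TPM with agonist, against 2.41, 1.54 and 0.09 TPM with vehicle, with its counts uncertain because of the copies. The other Ccl21 rows held at most 0.08 TPM, and Ccl19 at most 0.29 TPM. Of the lymphatic markers, Lyve1 was lowest in vehicle replicate 3, at 2.59 to 4.15 TPM with agonist and 1.03, 6.81 and 0.74 TPM with vehicle, but Prox1 was lowest in agonist replicate 1, at 0.31, 0.54 and 1.29 TPM with agonist and 0.35, 0.57 and 0.48 TPM with vehicle. Madcam1, of high endothelial vessels, did not exceed 0.08 TPM and was at 0 in 3 libraries. The whole list of 4 lymph node and lymphatic markers, mostly Glycam1, which is also a milk mucin, summed to 9.81, 152 and 8.93 TPM with agonist, against 10.2, 90.6 and 2.24 TPM with vehicle. Cxcl13, the B cell attractant, had 0.71, 0.81 and 0.88 TPM with agonist, against 0.19, 0.34 and 0.06 TPM with vehicle, so the groups did not overlap. These values rest on 22, 25 and 30 counts with agonist, against 6, 12 and 2 counts with vehicle. The 4 B cell markers summed to 0.83, 1.14 and 0.42 TPM with agonist, against 0.62, 0.45 and 0.50 TPM with vehicle, with overlap. Xcl1, the lymphotactin that attracts cross-presenting dendritic cells, had 1.5, 2.01 and 1.81 TPM with agonist, against 2.37, 2.62 and 2.42 TPM with vehicle, again without overlap and in the other direction. Its counts were also few, at 14, 17 and 17 with agonist and 20, 26 and 22 with vehicle. The edgeR interval of its log2 fold change, -1.50 to 0.51, spanned 0. Ccl1, the CCR8 ligand, had 0 to 6 counts per library.

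The filter on low counts left 30 of the 46 rows to test. The 16 others were Ccl1, Ccl19, Cxcl3, Cxcl11 and Cxcl15 at low counts, 5 copy rows with a total of 1 count or less, and 6 rows without counts (Ccl26, Ccl27b, Ccl21d, 2 rows of Ccl21b and 1 of Ccl19). No chemokine ligand changed by the test over all genes. At an adjusted p under 0.05, edgeR called 0 of the 30, with a background of 0% of the 17396 genes tested. DESeq2 called 0 of the 28 members to which it gave a p (background 0.0231%, 4 genes) and gave none for Ccl8 and Ccl28, and limma-trend on log2(TPM + 1) called 0 of 30 (background 0%). Every tested member had an adjusted p of 0.990 or more by edgeR with Benjamini-Hochberg adjustment. At an unadjusted p under 0.05, 1 member was higher with agonist (background 0.719%) and 0 were lower (background 2.37%). In either direction the count at that threshold was 1 by DESeq2 (background 3.84%) and 1 by limma-trend (background 2.16%). In CPM, 1 member lay wholly above vehicle (Cxcl13, background 3.02%) and 1 wholly below (Xcl1, background 4.22%). Of the 30, 16 had a positive and 14 a negative log2 fold change, with a median of 0.09, against a median of -0.0049 and 49.3% positive over all genes.

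**Figure D3:**
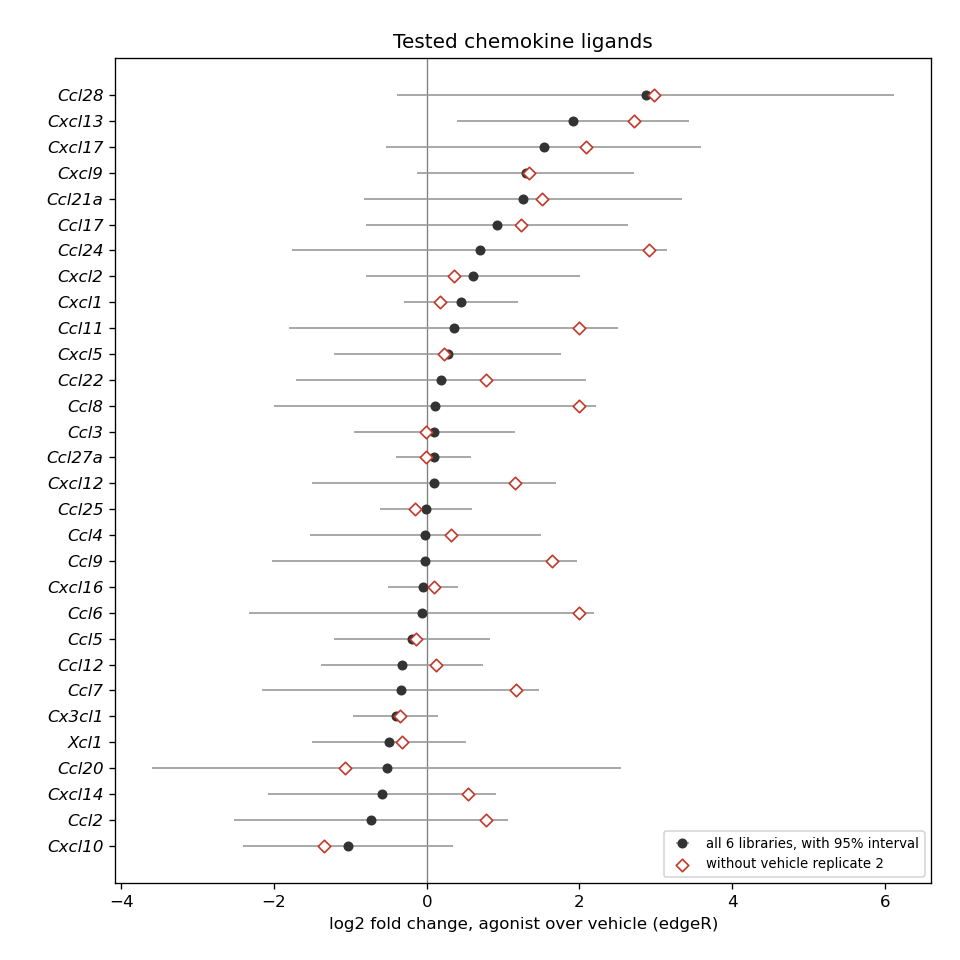
Log2 fold change of agonist over vehicle for the 30 tested chemokine ligands; black points with 95% intervals use all 6 libraries, open diamonds leave out vehicle replicate 2. The diamonds of Ccl8, Ccl6 and Ccl11 stand near 2, while their black points stand at 0.11, -0.07 and 0.35, with intervals that span 0.

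Cxcl13 was the member at an unadjusted p under 0.05, at 1.92 ± 0.66 (log2 fold change and SE, 95% interval 0.40 to 3.44, edgeR unadjusted p = 0.0195, adjusted p = 0.990), and it ran from 1.497 to 2.72 when single libraries were left out. Its level was 0.80 ± 0.085 TPM with agonist and 0.197 ± 0.14 TPM with vehicle (SD, n = 3 each). Cxcl9 and Cxcl10 had fold changes of opposite sign, 1.296 ± 0.61 (-0.12 to 2.71) for Cxcl9 and -1.03 ± 0.59 (-2.40 to 0.34) for Cxcl10. Neither interval left out 0, and they stood at 0.49 without agonist replicate 3 and at -0.55 without vehicle replicate 1. Ccl28 had the largest value, 2.87 ± 1.35 (-0.38 to 6.12), and 0.23 without agonist replicate 2.

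For the abundant ligands the intervals were wide, and a p that misses the threshold does not show that the levels were alike. Ccl8 averaged 144 ± 3.61 TPM with agonist and 121 ± 141 TPM with vehicle (SD, n = 3 each), at 0.11 ± 0.88 on the log2 scale (SE, interval -2.003 to 2.22). The intervals of Ccl6 (-2.33 to 2.19), Ccl9 (-2.03 to 1.97) and Ccl11 (-1.80 to 2.504) admit changes of similar size either way. Narrower bounds held for Cxcl16 (-0.05 ± 0.20; -0.51 to 0.41), Ccl27a (0.09 ± 0.21; -0.40 to 0.59), Ccl25 (-0.01 ± 0.26; -0.61 to 0.59) and Cx3cl1 (-0.41 ± 0.24; -0.97 to 0.15), whose differences were within the spread between libraries. The median SD of log2 CPM over the 30 members was 0.35 in the agonist group and 1.01 in the vehicle group, against 0.24 and 0.33 over all genes. The vehicle SD was the larger in 23 of 30 members and in 63.9% of all genes.

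That spread followed vehicle replicates 2 and 3. In CPM, 13 of the 30 members were highest in vehicle replicate 2 (16.9% of all genes were) and 17 were lowest in vehicle replicate 3 (20.7% of all genes), and 11 combined both (8.43% of all genes). The 13 were Ccl2, Ccl4, Ccl6, Ccl7, Ccl8, Ccl9, Ccl11, Ccl12, Ccl22, Cxcl12, Cxcl14, Cxcl16 and Xcl1. The level in vehicle replicate 2 over that in vehicle replicate 3 was 9.81-fold for Ccl8, 9.93-fold for Ccl6, 10.4-fold for Ccl11 and 6.95-fold for Cxcl12, against 10.3-fold for the summed fibroblast markers, 3.02-fold for the macrophage markers, 28.2-fold for the 4 adipocyte markers and 1.11-fold for the luminal markers. It was 0.442 for Cxcl1 and 0.689 for Ccl27a. The marker sums were mostly a few abundant genes (the collagens, the C1q genes with Cd14, and Cfd), and single markers differed. In vehicle replicates 2 and 3, Mrc1 had 20.9 and 2.36 TPM and Cd14 155.8 and 83.55 TPM, both macrophage markers. Of the fibroblast markers, Col3a1 had 645 and 52.9 TPM and Pdgfra 5.38 and 3.07 TPM. The sums therefore do not rank cell types as sources. The part of stromal content in these ligands was not tested.

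**Figure D4:**
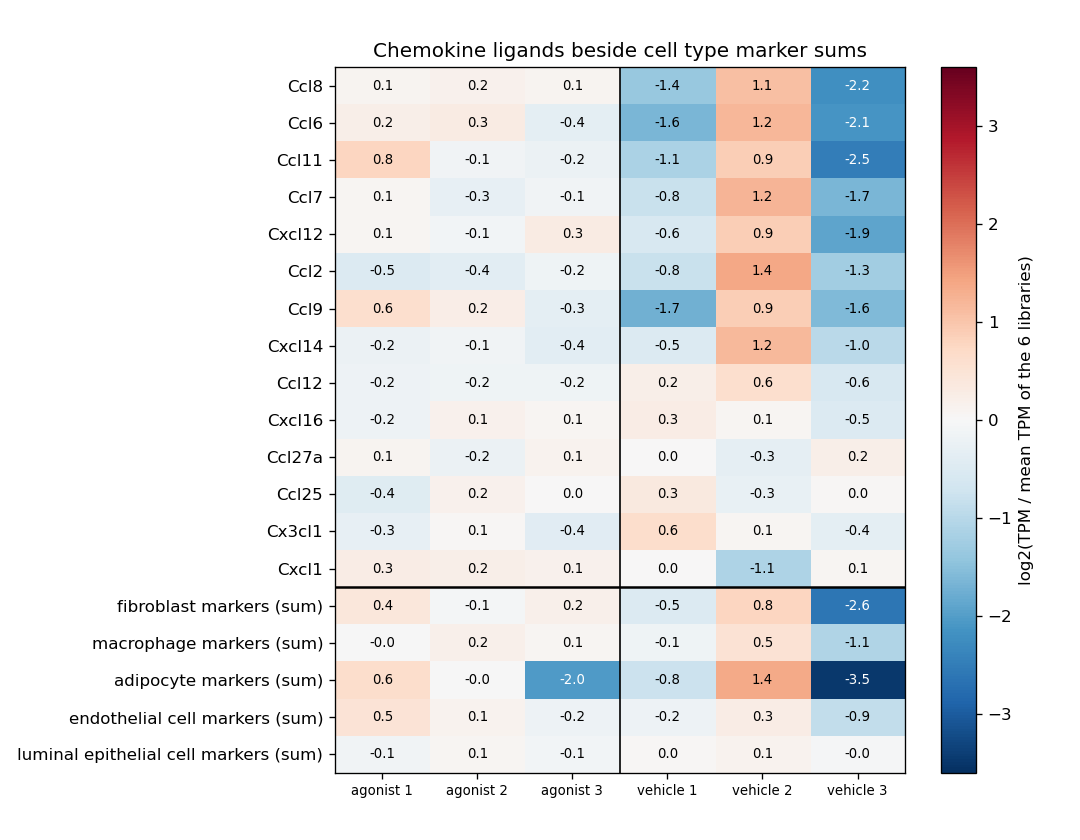
Heat map of log2(TPM over the mean TPM of the 6 libraries) for 14 chemokine ligands above the line and 5 summed cell type marker lists below it, agonist libraries on the left. Ccl8 to Cxcl12 are blue in vehicle replicates 1 and 3 and red in vehicle replicate 2, as are the fibroblast and adipocyte sums, while Cxcl1 is blue in vehicle replicate 2 and the luminal sum is near 0 throughout.

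Leaving out vehicle replicate 2 moved the median of the members, though not each member: Ccl28 stood at 2.98, Cxcl9 at 1.34 and Ccl25 at -0.15. Then 10 of 30 members were higher with agonist at an unadjusted p under 0.05, against a background of 6.61% of the genes tested in that fit, and 0 were lower (background 6.98%). The median log2 fold change of the members was 0.66, and 22 of 30 were positive. This library was singled out from these same values, as the highest in CPM for 13 of the 30 members. Leaving it out raises those members against vehicle by construction, so the counts and p-values of this fit are not a test of the agonist. Ccl8 stood at 1.99 ± 0.25 (SE, edgeR unadjusted p = 8.87e-05), Ccl6 at 1.99 ± 0.30 and Ccl9 at 1.64 ± 0.32, and the others were Ccl2, Ccl7, Ccl11, Ccl24, Cxcl12, Cxcl13 and Cxcl14. With 3 libraries against 2, the smallest adjusted p of any member was 0.262 (Ccl8 and Ccl6), so 0 passed over all genes. The remaining vehicle libraries are those with the 2 lowest fibroblast and macrophage sums. With agonist replicates 1, 2 and 3 left out in turn, 3, 2 and 0 members reached an unadjusted p under 0.05 by edgeR in either direction (445, 620 and 315 of all genes). Without vehicle replicates 1 and 3 the counts were 0 and 2 (376 and 576 of all genes). Shares of the genes tested were not computed for these fits, so their counts are not a result about the members. With all 6 libraries the counts were 1 member and 538 of 17396 genes. Leaving out vehicle replicate 3 turned Ccl8 to -0.35, Ccl6 to -0.53 and Ccl2 to -1.14.

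No receptor for these ligands passed the test. Of 18 chemokine receptor genes, 12 were tested by edgeR, 0 passed in either direction (adjusted p of 0.990 or more, 0 at an unadjusted p under 0.05), and 6 were positive and 6 negative with a median log2 fold change of -0.08. Cxcr4, the receptor of Cxcl12, was the most abundant, at 27.2, 24.1 and 21.8 TPM with agonist and 45.7, 28.2 and 14.3 TPM with vehicle. Cx3cr1, the receptor of Cx3cl1, had 3.25, 4.10 and 4.06 TPM with agonist, against 7.68, 5 and 2.62 TPM with vehicle (log2 fold change -0.46 ± 0.35), and was highest in vehicle replicate 1 as its ligand was. Ccr2, the monocyte receptor, had 2.63, 3.16 and 2.68 TPM with agonist, against 1.44, 5.36 and 0.34 TPM with vehicle, with vehicle replicate 2 highest and vehicle replicates 1 and 3 lowest, as for Ccl2 and Ccl7. Ccr10 (-1.21 ± 0.60) and Cxcr6 (0.69 ± 0.63), the receptors of Ccl27a and Cxcl16, were at most 0.43 TPM in any library. Of the 5 atypical, scavenging or non-signalling receptors, all tested, 4 were positive and 1 negative (median 0.17), with 0 called. Among them Ackr4, which scavenges CCR7 ligands, was at 0.75 ± 0.50, Ccrl2 at 0.21 ± 0.29 and Ackr2 at -0.30 ± 0.69. Pf4, a platelet and macrophage chemokine, also had vehicle replicates 2 and 3 at its extremes, with 20.9, 16.1 and 9.89 TPM with agonist and 8.01, 25.0 and 3.08 TPM with vehicle, and Ppbp stayed under 1 TPM.

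Regulators of chemokine genes and LXR targets did not pass the threshold either. Of 11 tested NF-kB inputs and feedback genes, 9 had negative and 2 positive log2 fold changes (median -0.27), with 0 called by edgeR and 2 at an unadjusted p under 0.05, Rela (-0.36 ± 0.14) and Nfkb2 (-0.44 ± 0.18), which encode NF-kB subunits and were both lower (2.37% of all genes were lower at that threshold). The 12 listed genes summed to 162, 186 and 182 TPM with agonist, against 265, 156 and 212 TPM with vehicle. The groups overlapped, with vehicle replicate 1 the highest and vehicle replicate 2 the lowest library. Il1b, a cytokine that induces Cxcl1, had 4.46, 3.36 and 3.42 TPM with agonist, against 3.05, 1.96 and 0.90 TPM with vehicle (0.85 ± 0.47). Its part in the level of Cxcl1 was not tested. Of 11 tested interferon genes, 8 were negative and 3 positive (median -0.56), with 0 called and 0 at an unadjusted p under 0.05. Among them were Irf7 (-1.15 ± 0.51), an interferon-induced transcription factor, and Isg15 (-0.97 ± 0.62). The 12 listed interferon genes summed to 227, 161 and 200 TPM with agonist, against 427, 159 and 279 TPM with vehicle. Vehicle replicate 1 was again the highest and vehicle replicate 2 the lowest library. Of 6 LXR targets, 5 were positive and 1 negative (median 0.58). Among them were the cholesterol exporters Abcg1 (0.86 ± 0.23) and Abca1 (0.85 ± 0.31), and Scd1 (1.06 ± 0.47). Abcg1 and Abca1 were the 2 at an unadjusted p under 0.05 (0.719% of all genes were higher at that threshold). Abcg1, Abca1 and Scd1 all had adjusted p = 0.990 by edgeR. Srebf1, on average the most abundant of the 6, had 421 ± 140 TPM with agonist and 520 ± 224 TPM with vehicle (SD, n = 3 each).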

How the data were processed

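Each library has deposited RSEM expected counts and deposited TPM. Per the submitters' processing notes, the build was GRCm38 and the tools named were R 4.1, DESeq2 1.36.0, RSEM 1.3.1, STAR 2.7.9a, cutadapt 3.5 and FastQC 0.11.9. Not given in the sources used here were the annotation release and strand setting, and the deposited FPKM were not used. Levels are the deposited TPM, since only a length-corrected unit compares genes. For tests, expected counts (10.1% to 10.5% of rows not whole) were rounded and analysed across all genes with edgeR 4.0.16 in R 4.3.3: TMM, filterByExpr (minimum count 10, minimum total 15), robust quasi-likelihood F test of agonist over vehicle, Benjamini-Hochberg adjustment, threshold 0.05. Standard errors are the log2 fold change over the square root of F. Alternatives were DESeq2 1.42.0 (size factors, Wald test), limma-trend 3.58.1 on log2(TPM + 1) or log2(TPM + 0.1), no filter, a replicate block and leaving out each library. The fit was checked on simulated counts with known changes and the same dispersion for every gene and both groups. That check does not cover a group with a single deviating library. Fold changes on the log2(TPM + pseudocount) scale understate changes of low genes. Positions are GENCODE M21 (55227 of 55487 identifiers found), and promoters RefSeq's. Members described singly are those with a mean of at least 1 TPM and the 8 smallest unadjusted p-values. The members and lists were chosen with earlier results of these data known, and the exocrine and plasma cell lists after values were seen. Floors cover counting error only, as no molecular identifiers are stated.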

Additional observations from a re-analysis of the deposited data

How the results depend on the processing

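Of 288 values of the 24 members described singly under an alternative, 249 kept direction and side of the threshold, 2 kept direction but had no adjusted p (Ccl8 and Ccl28 with the DESeq2 Wald test) and 37 changed sign. No value with an adjusted p crossed the threshold, and the cause of each change was not tested. Chemokine calls stayed at 0 in all settings, and calls over all genes at 0 except 4 with the DESeq2 Wald test. Other cut-offs for a mean TPM gave 32 members (0.1) and 11 (10). On log2(TPM + 1) the reversed values were 0.84 (Ccl6), 0.059 (Cxcl16), 0.85 (Ccl9) and 0.19 (Ccl7), and on log2(TPM + 0.1) 0.89, 0.063, 0.97 and 0.28, with Ccl20 at 0.11. Whether the replicate numbers pair the libraries is not known. Correlations of deviations from the group mean were 0.198, 0.0142 and 0.065 for replicates 1 to 3, against -0.129 to 0.0718 for unlike numbers. With 3 libraries per group these values cannot settle it. With the replicate block, Ccl6 stood at 0.87, Ccl9 at 0.68, Ccl7 at 0.34 and Ccl25 at 0.0054, with 0 calls over all genes. Values that kept their sign could also move far. Ccl8 went from 0.11 in the main fit to 0.93 on log2(TPM + 1), 0.94 on log2(TPM + 0.1) and 1.04 with the block. The members' median went from 0.09 to 0.41 with the block.

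With single libraries left out, the members' median ran from -0.21 to 0.66 and the count of negative members from 8 to 17. Log2 fold changes ran from -0.35 to 1.99 for Ccl8, -0.53 to 1.99 for Ccl6, -0.46 to 1.64 for Ccl9, -0.12 to 1.996 for Ccl11, -1.14 to 0.78 for Ccl2, -0.78 to 1.17 for Ccl7, -0.57 to 0.12 for Ccl12, -0.95 to 0.54 for Cxcl14, -0.35 to 1.15 for Cxcl12, -0.23 to 0.091 for Cxcl16, -0.0056 to 0.21 for Ccl27a, -0.15 to 0.12 for Ccl25, -0.40 to 0.0301 for Ccl5 and -2.09 to 1.66 for Ccl20. The lower end was without vehicle replicate 3 and the upper without vehicle replicate 2 for all of these members except Ccl27a, Ccl25, Ccl5 and Ccl20. Depth limits Cxcl9, Cxcl10, Cxcl13, Xcl1, Ccl17 and the members below 1 TPM, which rest on few counts. It also limits the lowest values of Ccl20 (3 counts) and Ccl21a (2 counts).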
